A study of Mus musculus with 12 samples.

Results

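The heat shock protein and J-domain chaperone genes were followed in RNA sequencing libraries of mouse dorsal hippocampus taken at postnatal day 7. They are the 74 protein-coding genes whose symbols begin with Hspa, Hsph, Hsp90, Hspd, Hspe, Hspb, Dnaja, Dnajb or Dnajc, among 52634 genes and 21894 protein-coding genes in the table. Another 13 entries with such symbols are processed pseudogenes and were left out. In control mice (SERTfl/fl) both copies of the serotonin transporter gene Slc6a4 are flanked by loxP sites, and in SERTPyramid mice, written SERTPyramid∆ in the titles, that gene is deleted in pyramidal neurons. The sources used here do not give the Cre driver. Libraries labelled female comprised 3 of SERTfl/fl and 3 of SERTPyramid, and libraries labelled male comprised the same numbers. Each of the 12 libraries was made from the pooled tissue of 4 mice. Nothing states whether pools shared litters, so the p-values measure only the spread between these libraries.

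Library totals ran from 18747249 to 25522347 counts, and 3 counts, the upper limit that a count of 0 allows, equalled 0.118 to 0.160 CPM, the count of a gene per 1000000 counts of its library. Slc6a4 had 0 to 17 counts in control libraries and 1 to 12 in SERTPyramid libraries, so its level did not separate the genotypes. Xist and Y-linked counts did not match the labelled sex of 10 of 12 libraries, all except control replicate 1 of each label. By these counts the controls of each label included libraries of both sexes, whereas the SERTPyramid libraries of each label were of a single sex. Genotype and sex are therefore partly confounded within each label and in the difference between labels, and cannot be fully told apart there. Female and male name a library's label throughout. Some counts and medians over sets of genes are also given without control replicate 1 of each label, but values of single genes are not given separately without them. All 8 pyramidal neuron markers were detected, with a summed level of 4203 to 5096 CPM. In such bulk tissue, fewer cells of a type and less RNA per cell cannot be told apart.

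Molecular chaperones bind unfolded or partly folded proteins and keep them from aggregating. HSP70 proteins do this in cycles of ATP hydrolysis. J-domain proteins (DNAJA, DNAJB and DNAJC) start each cycle and choose the client, nucleotide exchange factors such as the HSP110 proteins end it, and HSP90 takes over clients such as kinases and steroid receptors. Some members are made at all times, while others are switched on when heat or another stress activates the transcription factor HSF1, or when unfolded protein accumulates in the endoplasmic reticulum. Neurons depend on chaperones at the synapse too, where a J protein attached to synaptic vesicles and HSP70 maintain the release machinery.

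Of the 74 members, 65 passed the filter on low counts that 17631 of all genes passed. The HSP70 and HSP110 group had 14 of 14 members tested, HSP90 had 3 of 3, the mitochondrial chaperonin pair 2 of 2, DNAJA 4 of 4, DNAJB 11 of 13, DNAJC 25 of 28 and the symbols beginning with Hspb 6 of 10. The 9 members that did not pass were Hspb2, Hspb3, Hspb7, Hspb9, Dnajb7, Dnajb8, Dnajc22, Dnajc5b and Dnajc5g. Dnajc5g had 0 counts in all 12 libraries, and the other 8 reached at most 10 counts in any library. Dnajc5b and Dnajc5g are relatives of Dnajc5, the gene of the synaptic vesicle J protein. The 74 members together summed to 7236 to 7512 CPM in a library, with a coefficient of variation (CV) of 1.15%.

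Levels spanned several orders of magnitude on the scale of CPM per kilobase of exon, the scale used for every comparison of levels between genes. Hsp90ab1, the constitutive cytosolic HSP90, stood first at 667 ± 16.6 CPM per kilobase (SD, n = 12), and its lowest library, at 638, lay far above the highest library of Hsp90aa1. Hspa8, the constitutive cytosolic HSP70, followed at 115 ± 1.97 CPM per kilobase. Hsp90aa1, the stress-responsive cytosolic HSP90, had 77.1 ± 2.01 and the endoplasmic reticulum form Hsp90b1 44.96 ± 1.505 CPM per kilobase. The order within HSP90 held in every library, because the ranges of neighbouring genes did not overlap. With the longest coding transcript as the length, the first 3 genes were the same, while Hspa12a came ahead of Hspa4 and Dnajc7 ahead of Dnajc6.

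**Figure D1:**
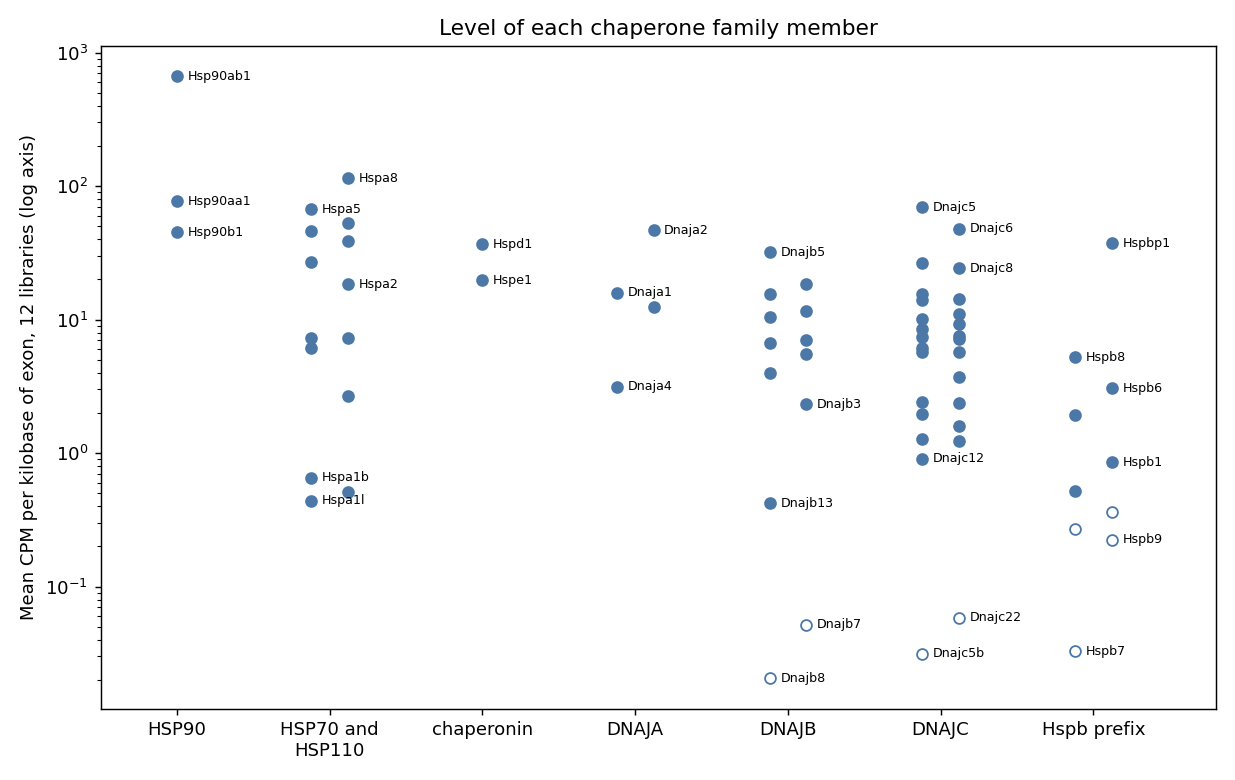
Mean level of each family member in CPM per kilobase of exon over 12 libraries (log axis), by family, with filled points for tested members and open points for members below the low-count filter. Dnajc5g, at 0 in all libraries, is not drawn. Hsp90ab1 lies highest at 667 CPM per kilobase, whereas Hspa1a, Hspa1b and Hspa1l lie under 1.

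Among the HSP70 and HSP110 genes, Hspa5, which encodes the endoplasmic reticulum HSP70 known as BiP, came after Hspa8 at 67.1 ± 3.34 CPM per kilobase (SD, n = 12). Hspa4, an HSP110-type exchange factor, had 52.6 ± 1.48, Hspa12a had 46.3 ± 1.44 and the mitochondrial HSP70 gene Hspa9 had 38.7 ± 1.02 CPM per kilobase. Hsph1, the stress-responsive HSP110 gene, had 27.0 ± 0.966 CPM per kilobase. These genes and Hspa2 kept the same order in all 12 libraries, since the ranges of neighbours did not overlap. The stress-inducible HSP70 genes Hspa1b and Hspa1a, at 0.652 ± 0.131 and 0.513 ± 0.131 CPM per kilobase, were at the bottom with their neighbour and relative Hspa1l, known from the testis, at 0.440 ± 0.1003, and the ranges of these neighbours overlapped.

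Dnajc5, which encodes the cysteine string protein of synaptic vesicles, led the J-domain genes at 69.5 ± 2.27 CPM per kilobase (SD, n = 12). Dnajc6, the gene of auxilin, which uncoats clathrin-coated vesicles together with HSP70, followed at 47.9 ± 1.39 CPM per kilobase. Dnajc7 had 26.4 ± 1.02 and Dnajc8 24.2 ± 0.798 CPM per kilobase, with overlapping ranges. Dnaja2 led its family at 46.8 ± 1.29 CPM per kilobase, ahead of Dnaja1 at 15.8 ± 0.424 and the mitochondrial Dnaja3 at 12.4 ± 0.237. In the DNAJB family Dnajb5 had 31.97 ± 1.64, the endoplasmic reticulum co-chaperone Dnajb11 had 18.5 ± 0.704, and Dnajb1, the main stress-responsive J protein, had 15.7 ± 0.474 CPM per kilobase.

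The mitochondrial chaperonin Hspd1 had 36.8 ± 0.800 CPM per kilobase and its co-chaperonin Hspe1 had 19.7 ± 1.49 (SD, n = 12). Symbols beginning with Hspb cover different kinds of gene. Hspbp1, an HSP70 nucleotide exchange factor, had 37.3 ± 2.19 CPM per kilobase, and the highest small heat shock protein gene was Hspb8 at 5.25 ± 0.459, followed by Hspb6 at 3.05 ± 0.351. Hspb1, the small heat shock protein best known for its stress induction, had 0.857 ± 0.408 CPM per kilobase. Small heat shock proteins hold unfolded clients without ATP.

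A pair of inducible HSP70 genes share so much sequence that their values cannot be fully separated. Of the 50-base words in the exons of Hspa1a, 58.8% also occur in Hspa1b, and the sources used here do not say how reads that fit more than 1 gene were counted. In the GRCm38 genome the genes lie on chromosome 17, Hspa1a at chr17:34969190-34972156 and Hspa1b at chr17:34956436-34959238, both on the minus strand. The 250 bases before each start in RefSeq, shown because they carry the same likeness into the promoter, are identical at 247 positions, or 98.8%. They lie on the minus strand of GRCm38 at chr17:34972157-34972406 and chr17:34959239-34959488, and the capitals mark a match to GAANNTTC, a pair of heat shock units, from 104 to 97 bases before the start.
Hspa1a: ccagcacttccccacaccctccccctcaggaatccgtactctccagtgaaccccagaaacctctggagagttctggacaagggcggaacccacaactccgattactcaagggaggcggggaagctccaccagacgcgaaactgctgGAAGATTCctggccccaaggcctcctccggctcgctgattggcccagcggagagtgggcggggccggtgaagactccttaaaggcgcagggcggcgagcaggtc
Hspa1b: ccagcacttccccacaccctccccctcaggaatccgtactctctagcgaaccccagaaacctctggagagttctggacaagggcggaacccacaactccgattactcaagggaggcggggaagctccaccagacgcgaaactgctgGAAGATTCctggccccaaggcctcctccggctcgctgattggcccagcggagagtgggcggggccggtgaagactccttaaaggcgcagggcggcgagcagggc

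Hspa1a had 1.78, 1.40 and 1.36 CPM in control libraries labelled female and 2.05, 0.902 and 1.52 in SERTPyramid libraries labelled female. In libraries labelled male it had 1.23, 1.33 and 1.37 CPM in controls and 2.22, 1.204 and 1.90 in SERTPyramid. Groups overlapped under both labels, and these levels rested on 19 to 52 counts a library. The log2 fold change of SERTPyramid over control was -0.02 ± 0.27 (SE) under the female label and 0.42 ± 0.27 under the male label, with edgeR adjusted p of 0.991 and 0.999. The 95% interval under the male label ran from -0.15 to 0.98, which does not exclude a change near either bound. Hspa1b had 24 to 54 counts a library and a log2 fold change of -0.13 ± 0.23 under the female label and 0.33 ± 0.24 under the male label. Hspa1l, whose exons overlap those of Gm10501 over 71.9% of their length, gave -0.28 ± 0.26 and 0.39 ± 0.25, and the difference between these, -0.67 ± 0.36, had an edgeR adjusted p of 0.999.

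Genotype was compared within each label, on average over both labels, and as the difference between labels (interaction). In edgeR's quasi-likelihood test, 0 of 65 members passed an adjusted p of 0.05 in any of these 4 comparisons, where the share of all 17631 genes called was 0% each time. DESeq2 also called 0 members, and under the female label it gave an adjusted p for 37 of them. At an unadjusted p under 0.05, 3 members were counted under the female label, against 8.04% of all genes, and 1 under the male label, against 3.16%. The average gave 2 members against 6.49% of all genes, and the interaction 1 against 4.45%. Each count was a smaller share of the 65 members than the share over all genes. The members were Hsph1, Dnajc2 and Dnajc4 under the female label, Hspa2 under the male label, Dnajc4 and Dnajc2 on average, and Hsph1 in the interaction. With the libraries labelled female fitted alone, 2.43% of 17108 genes passed the adjusted threshold, and 0 of 65 members did. At an unadjusted p under 0.05 that fit counted 5 members against 13.9% of genes, and the fit of libraries labelled male alone counted 1 member against 1.86%.

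The precision behind these comparisons was set by the spread between libraries. Under the female label the 95% interval of the log2 fold change lay within 1.2-fold either way for 43 of 65 members, against 44.8% of all genes, and within 1.5-fold for 60 of 65, against 74.6%. In libraries labelled male the counts were again 43 and 60 of 65, against 47.9% and 75.4%. For the average, 53 members lay within 1.2-fold and 63 within 1.5-fold, against 60.7% and 84.3% of all genes. The 2 members outside 1.5-fold for the average were Hspb1, with 6 to 35 counts a library, and Hspa1a, with 19 to 52. The shares over all genes were not matched for level, and the median level was 48.05 CPM for tested members and 15.7 CPM for all genes. They therefore do not show that the family was more precisely measured than genes of like level.

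**Figure D2:**
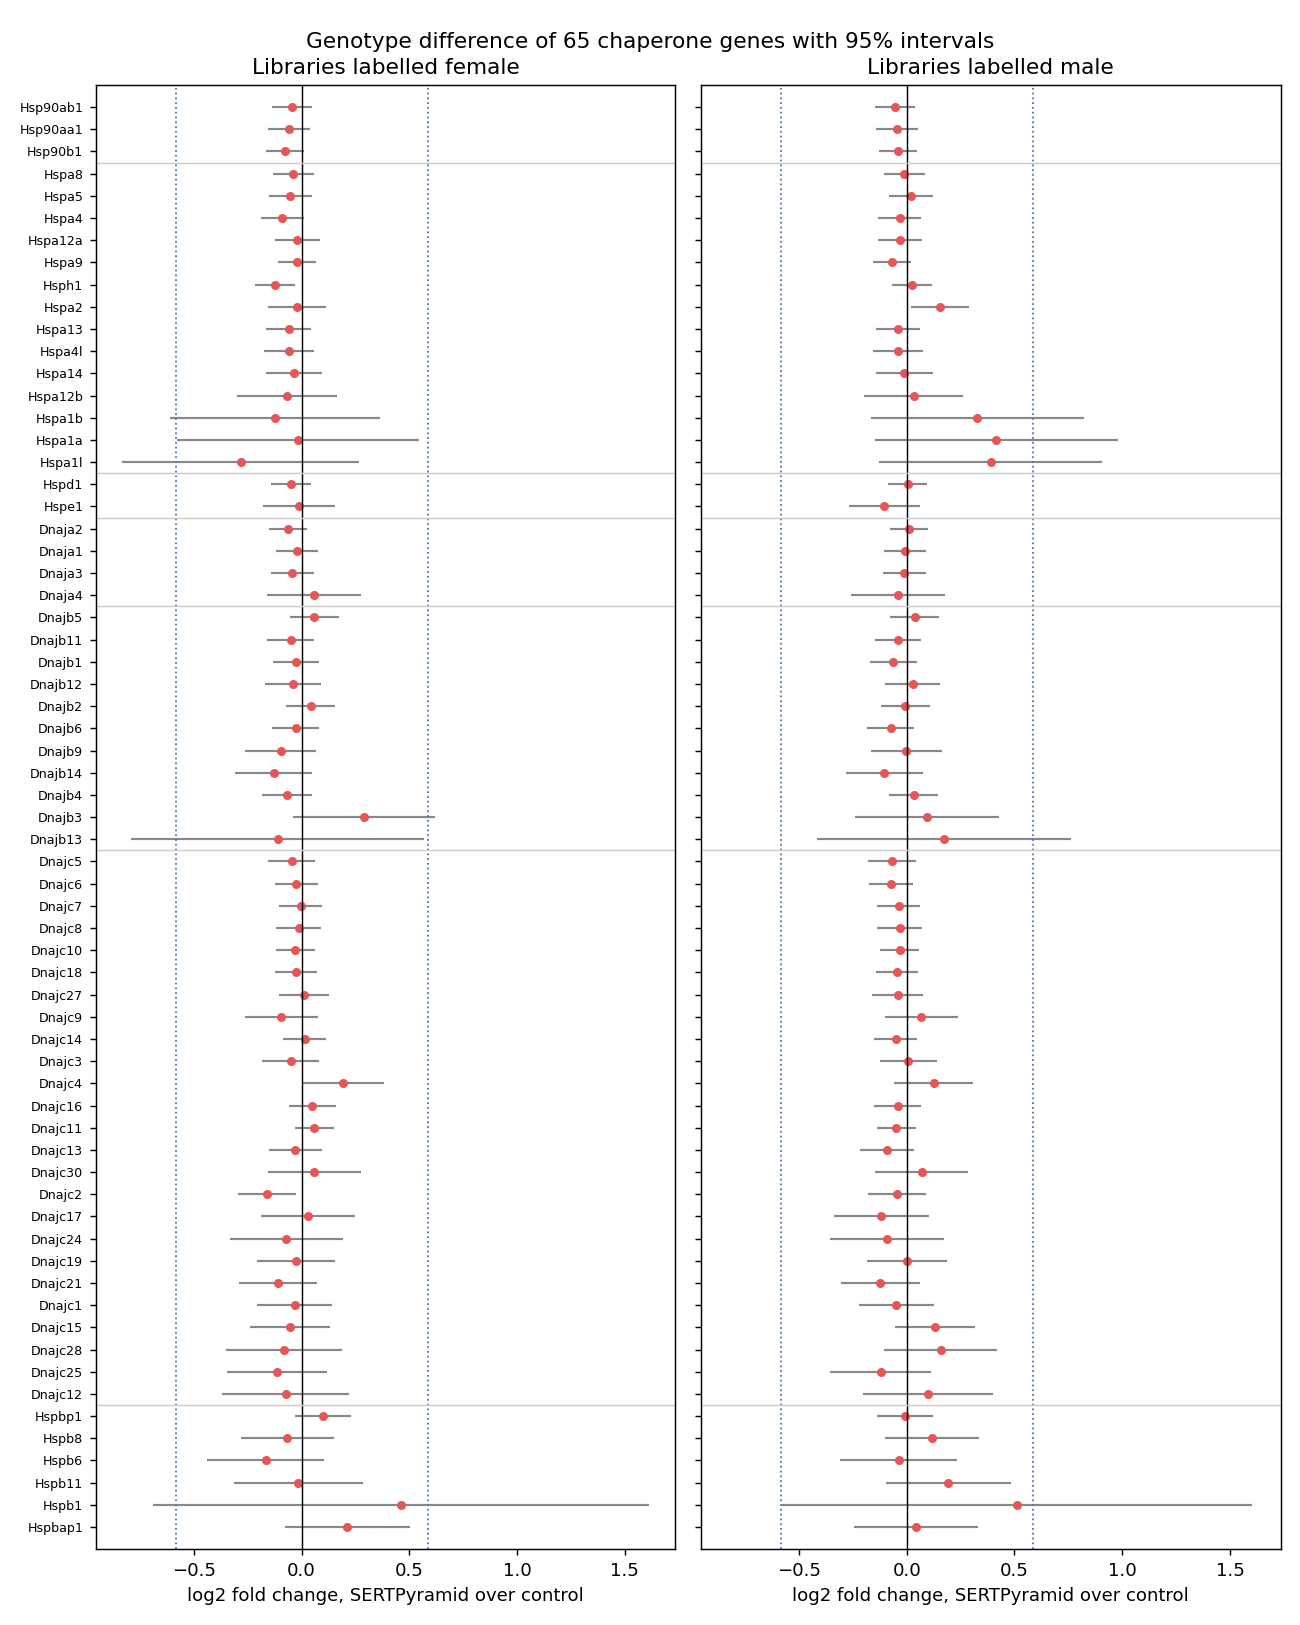
Log2 fold change of SERTPyramid over control for the 65 tested members (points) with 95% intervals (lines), in libraries labelled female (left) and male (right), grouped by family. Dotted lines mark 1.5-fold either way, and 60 of 65 intervals lie between them in each panel, with Hspb1, Hspa1a, Hspa1b and Hspa1l among the widest.

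Under the female label most members had estimates slightly below 0. The median log2 fold change of the 65 members was -0.04, against -0.0004 over all genes, and 51 of 65 lay below 0, against 8837 of 17631. All 14 HSP70 and HSP110 genes, all 3 HSP90 genes, both chaperonin genes and 18 of 25 DNAJC genes lay below 0, with 0 called. These signs come from the same 3 control and 3 SERTPyramid libraries, so the genes are not separate observations. All genes were not matched to the members for level here, and the median level was 48.05 CPM for the tested members and 15.7 CPM for all genes. With library totals in place of TMM scaling, a choice made after seeing the data, 47 of 65 members and 7818 of 17631 genes lay below 0, and the median of all genes moved to 0.017. Without the control libraries numbered 1, 44 of 65 members lay below 0 with a median of -0.02, and 11 of the 14 HSP70 and HSP110 genes with a median of -0.03.

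Under the male label the median of the members was -0.01 and 39 of 65 lay below 0. The HSP70 and HSP110 genes were split evenly, with 7 of 14 below 0, while the 3 HSP90 genes lay below 0 again. With library totals, which moved the median of all genes to 0.015 and left 7706 of 17631 below 0, 32 of 65 members lay below 0. The average of both labels had 44 of 65 members below 0 and a median of -0.02.

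Hsph1, the HSP110 gene (chr5:149614287-149636376, minus strand), had the smallest p under the female label. Its controls had 209.9, 204.4 and 197.7 CPM, and the SERTPyramid libraries 191.95, 182.9 and 193.9 CPM, so the groups did not overlap. Controls labelled male had 194.1, 195.6 and 190.7 CPM and SERTPyramid libraries 201.3, 193.8 and 200.9 CPM, with overlap. The log2 fold change was -0.12 ± 0.04 (SE) under the female label and 0.02 ± 0.04 under the male label, with edgeR adjusted p of 0.544 and 0.999. The difference between the labels, -0.15 ± 0.06, had the smallest p of the interaction among members, with an edgeR adjusted p of 0.999. With libraries labelled female alone, the change of -0.12 ± 0.04 had an edgeR adjusted p of 0.126, and 0.0679 when SERTPyramid replicate 3 was left out as well, within a range of 0.0679 to 0.925 over all alternatives.

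Hspa4, the related exchange factor gene (chr11:53259814-53300457), had 300.9, 300.3 and 294.5 CPM in controls labelled female and 279.2, 283.4 and 288.4 CPM in the SERTPyramid libraries. These groups did not overlap, whereas those labelled male did, at 283.4, 296.6 and 297.5 against 278.6, 297.8 and 289.0 CPM. Its log2 fold change was -0.09 ± 0.05 under the female label (edgeR adjusted p = 0.666) and -0.03 ± 0.05 under the male label.

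Hspa2, an HSP70 gene best known for its role in the testis, had the smallest p under the male label. Controls labelled male had 45.3, 46.2 and 46.4 CPM and SERTPyramid libraries 55.3, 47.8 and 52.0 CPM, without overlap. Libraries labelled female overlapped, with controls at 53.8, 44.8 and 46.0 CPM and SERTPyramid at 48.4, 49.04 and 46.9 CPM. The log2 fold change was 0.16 ± 0.06 under the male label (edgeR adjusted p = 0.999) and -0.02 ± 0.06 under the female label. Hspa9 gave -0.07 ± 0.04 under the male label, with SERTPyramid libraries at 158.7, 161.8 and 162.9 CPM overlapping controls at 172.7, 162.2 and 167.3.

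**Figure D3:**
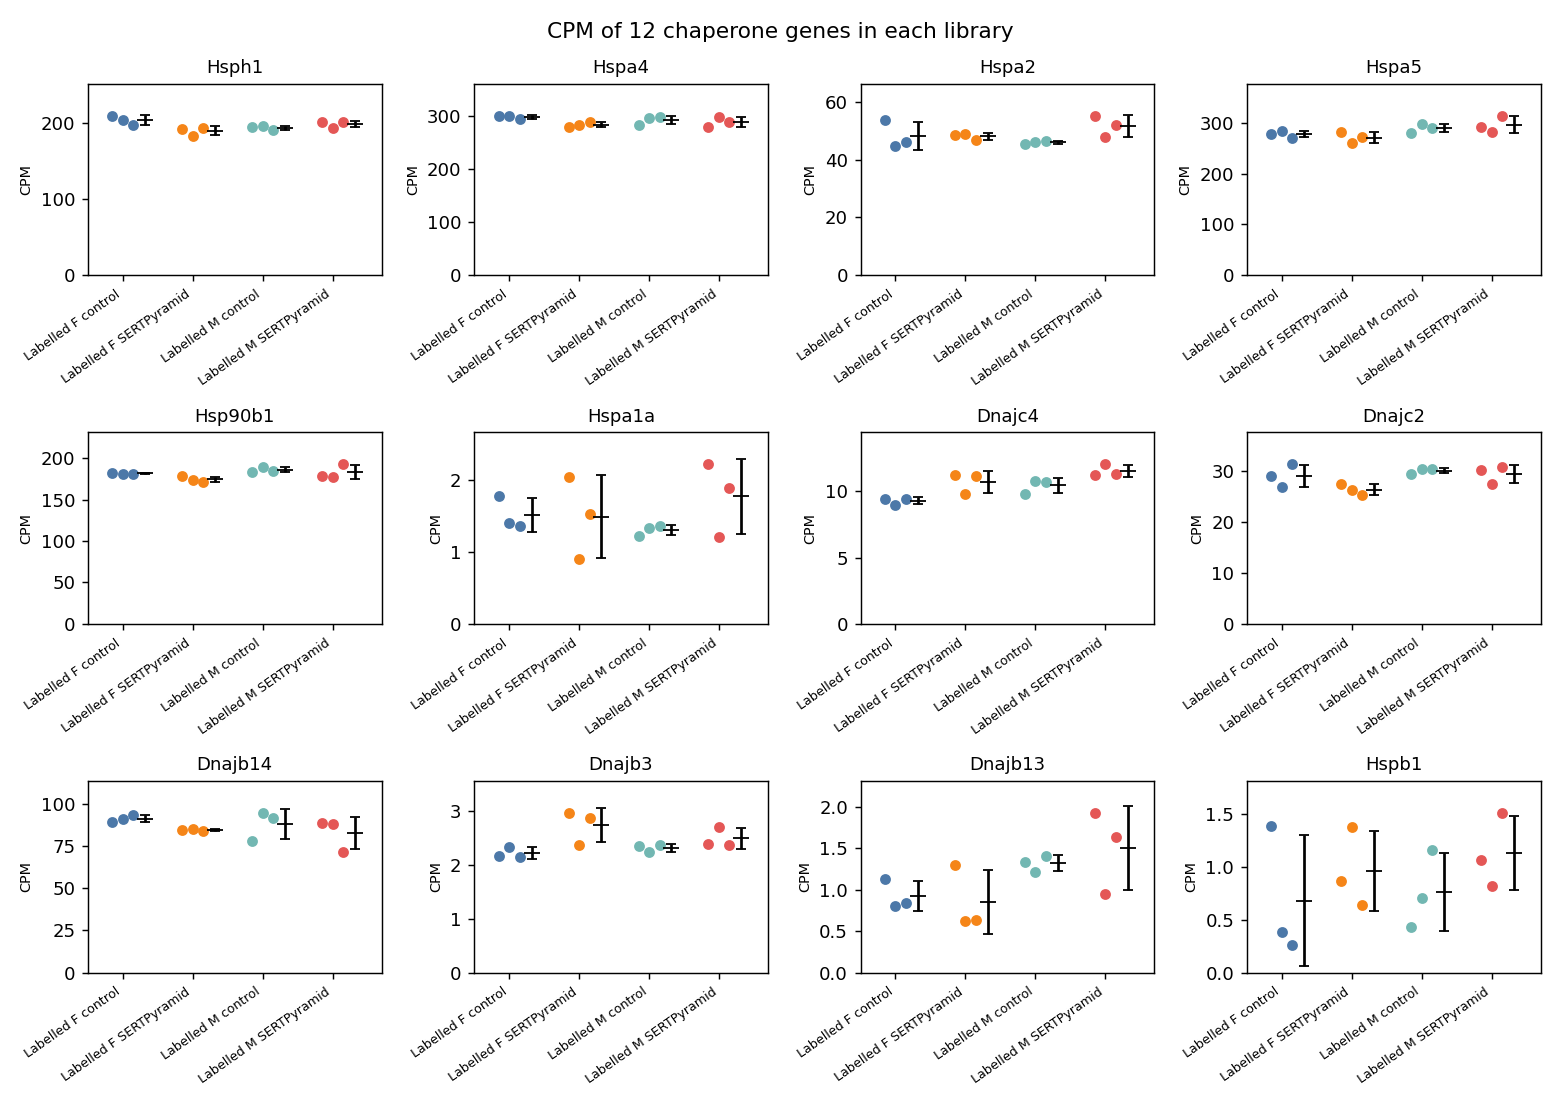
CPM of 12 members in each of 12 libraries (points), with the mean and SD of each group of 3 beside them, where F and M stand for the labelled sex and every axis starts at 0. On these library totals, under the female label Hsph1, Hspa4, Hsp90b1 and Dnajb14 have all SERTPyramid points below the control points, and Dnajc4 and Dnajb3 have them above.

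Among the J-domain genes, Dnajc4 had the smallest p on average over both labels. It had 9.42, 8.97 and 9.43 CPM in controls labelled female and 11.2, 9.78 and 11.1 CPM in SERTPyramid. In libraries labelled male it had 9.81, 10.8 and 10.7 CPM in controls and 11.2, 12.04 and 11.3 CPM in SERTPyramid. Groups did not overlap within either label, and the average log2 fold change was 0.16 ± 0.06 (edgeR adjusted p = 0.756). Across both labels together the 6 control and 6 SERTPyramid libraries overlapped.

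Dnajc2, which encodes a ribosome-associated J protein that works on nascent chains, had 29.0, 26.9 and 31.3 CPM in controls labelled female and 27.4, 26.3 and 25.3 CPM in SERTPyramid. Those groups overlapped, and the log2 fold change was -0.16 ± 0.06 (edgeR adjusted p = 0.568). It was -0.05 ± 0.06 under the male label. Dnajc21, another gene of a J protein of ribosome production, gave -0.11 ± 0.09 and -0.12 ± 0.09 under the female and male labels, and Dnajc11, which encodes a mitochondrial J protein, 0.06 ± 0.04 and -0.05 ± 0.04.

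Dnajb3 was the only tested member whose 6 SERTPyramid libraries all lay above its 6 control libraries, with 0.187% of all genes so placed, and 0 members lay wholly below, against 0.0737%. Its highest control had 2.36 CPM and its lowest SERTPyramid library 2.37 CPM, on 44 to 75 counts a library. These values use library totals. Scaled by the TMM factors of the test, a choice made after seeing the data, its highest control had 2.39 CPM and its lowest SERTPyramid library 2.32 CPM, and the groups overlapped under both labels. The average log2 fold change was 0.19 ± 0.11, with an edgeR adjusted p of 0.765. Dnajb14, a J protein anchored in the endoplasmic reticulum membrane, had 89.2, 90.9 and 93.3 CPM in controls labelled female and 84.4, 84.7 and 84.0 CPM in SERTPyramid, without overlap. Under the male label 1 control at 78.1 CPM and 1 SERTPyramid library at 71.6 CPM stood below the others, and the groups overlapped. With libraries labelled female alone, its log2 fold change of -0.13 ± 0.04 had the smallest edgeR adjusted p of any member, 0.0911.

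Counting groups that did not overlap, 3 members were higher and 6 lower in SERTPyramid under the female label, where 11.8% and 6.99% of all genes were. Those higher were Dnajc4, Dnajb3 and Dnajc11, and those lower were Hsph1, Hspa4, Hsp90b1, Dnajb14, Dnajc21 and Dnajc25. Under the male label 5 members were higher (Hspa2, Dnajc15, Dnajc4, Dnajc28 and Dnajb3) and Dnajb6 was lower, against 4.09% and 2.66% of all genes. Dnajc4 and Dnajb3 stood in both lists. These counts use library totals, as do the statements on overlap above except where TMM scaling is named. On CPM scaled by TMM, Dnajb3 and Dnajb6 overlapped, Dnajc2 and Dnaja3 were lower without overlap under the female label, and Hsph1 was higher without overlap under the male label.

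The list of heat shock genes that HSF1 is known to drive holds 13 members, from the strongly inducible Hspa1a and Hspb1 to genes such as Hspa8 and Hsp90ab1 that are also made without stress. Their summed level was 3338 to 3532 CPM, most of it from Hsp90ab1. In SERTPyramid 0 of 13 passed the test under either label, 12 of 13 estimates lay below 0 under the female label with a median of -0.05, and 7 of 13 under the male label with a median of -0.01. Without the control libraries numbered 1, 10 of 13 lay below 0 under the female label and 8 of 13 under the male label. Without SERTPyramid replicate 1 labelled male, 6 of 13 lay below 0 under the male label and the median was 0.02. With library totals and the shift of all genes given above, the counts were 11 and 5 of 13. Dnajb1 had 48.2, 50.4 and 51.9 CPM in controls labelled female and 50.1, 48.7 and 50.9 CPM in SERTPyramid, with overlap. Hspb1 ranged from 0.263 to 1.51 CPM over 12 libraries, and its groups overlapped under both labels.

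Heat shock elements, the sites HSF1 binds, are inverted repeats of the unit GAA. A search of RefSeq windows from 250 bases before to 50 after the start (GRCm38.p6) covered 60 members, and both strands were read. The 14 other members, among them Hspa8, Hsp90aa1 and Hsp90ab1 of the HSF1 list, had no window and were not searched. A run of 3 alternating units, GAA and TTC with any 2 bases between units, starting with either, occurred in 4 of 60 members, or 6.67%, against 0.662% of all genes with a window. The shorter run GAANNTTC or TTCNNGAA, part of every longer run, occurred in 16 of 60 members, or 26.7%, against 17% of genes. The 3-unit matches are printed because they are the part of these promoters that the heat shock factor is known to read. Capitals mark the GAA and TTC units, each match is 5′ to 3′ on the strand of its gene, and the Hspd1 and Hspe1 matches are the same bases read from opposite strands of the stretch between the RefSeq starts of these genes. The Hsph1 match lies just after the RefSeq start, and the others lie before theirs.
Hspd1 (minus strand, chr1:55088064-55088076): TTCcgGAAggTTC
Hspd1 (minus strand, chr1:55088059-55088071): GAAggTTCtaGAA
Hspe1 (plus strand, chr1:55088059-55088071): TTCtaGAAccTTC
Hspe1 (plus strand, chr1:55088064-55088076): GAAccTTCcgGAA
Dnajb6 (plus strand, chr5:29735852-29735864): GAAtcTTCcgGAA
Hsph1 (minus strand, chr5:149636288-149636300): TTCtgGAAagTTC

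The 4 genes with these matches had estimates below 0 under the female label, and 2 above and 2 below 0 under the male label. Hspd1 had 97.7, 96.0 and 98.2 CPM in controls labelled female and 92.3, 97.7 and 95.5 CPM in SERTPyramid, and 96.1, 96.9 and 99.2 against 97.5, 97.3 and 100.9 CPM under the male label, with overlap in both. Hspe1, its partner across the shared promoter, had log2 fold changes of -0.01 ± 0.08 and -0.10 ± 0.08 under the female and male labels. Dnajb6, which encodes a J protein that holds back amyloid growth, gave -0.03 ± 0.05 and -0.08 ± 0.05. A match describes the letters of the window and does not show that HSF1 was bound there.

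The endoplasmic reticulum list holds 8 members, Hspa5, Hsp90b1, Dnajb9, Dnajb11, Dnajc3, Dnajc10, Hspa13 and Dnajc1. Hsp90b1, the HSP90 of that compartment (chr10:86690209-86705509), had 182.7, 181.4 and 181.4 CPM in controls labelled female and 178.2, 173.2 and 171.8 CPM in SERTPyramid, without overlap. In libraries labelled male it had 183.4, 189.4 and 185.2 CPM in controls and 178.9, 177.0 and 192.6 CPM in SERTPyramid, with overlap. The log2 fold change was -0.08 ± 0.04 under the female label and -0.04 ± 0.04 under the male label, with edgeR adjusted p of 0.689 and 0.999.

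Hspa5 (chr2:34771970-34777547) had 278.9, 283.9 and 271.3 CPM in controls labelled female and 282.4, 259.9 and 271.6 CPM in SERTPyramid. Libraries labelled male had 280.7, 297.0 and 291.0 CPM in controls and 293.0, 281.3 and 314.8 CPM in SERTPyramid. The groups overlapped under both labels, with log2 fold changes of -0.05 ± 0.05 and 0.02 ± 0.05. Dnajc3, an endoplasmic reticulum J protein also known as an inhibitor of the kinase PERK, ranged from 45.1 to 53.5 CPM with overlap under both labels.

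Over the list 0 of 8 passed the test under either label. All 8 estimates lay below 0 under the female label with a median of -0.05, and 6 of 8 under the male label with a median of -0.04. Marker genes of choroid plexus epithelium, a secretory tissue next to the hippocampus, varied between libraries at the same time. The 7 markers summed to 967 to 1299 CPM in controls labelled female, 27.3 to 1264 in SERTPyramid labelled female, 1184 to 1830 in controls labelled male and 462 to 2486 in SERTPyramid labelled male. SERTPyramid replicate 3 labelled female was the lowest and SERTPyramid replicate 1 labelled male the highest. Without the former, 7 of 8 list members lay below 0 under the female label, with a median of -0.05. The latter held the highest value of 4 of the 8 genes and the lowest of 2. Over all 65 tested members it held the highest of 13 and the lowest of 11. Without it 7 of 8 list members lay below 0 under the male label, with a median of -0.03. Hspa5 and Hsp90b1 were highest in SERTPyramid replicate 3 labelled male, where the choroid plexus markers summed to 1208 CPM. The part of this tissue in the levels was not tested.

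The endoplasmic reticulum stress element is the promoter site that the unfolded protein response is known to use, CCAAT and CCACG with any 9 bases between them, or the reverse complement. It occurred in 3 of 60 members, or 5%, against 0.137% of all genes with a window. The 3 members were Hspa5, Hsp90b1 and Dnajc3, and their matches are shown because they were the only matches among the 60 members searched. The 14 members without a window, among them Hspa13 of this list, were not searched. Capitals mark the fixed bases of the element, 5′ to 3′ on the strand of the gene.
Hspa5 (plus strand, chr2:34772025-34772043): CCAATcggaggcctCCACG
Hsp90b1 (minus strand, chr10:86705638-86705656): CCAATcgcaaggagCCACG
Hsp90b1 (minus strand, chr10:86705533-86705551): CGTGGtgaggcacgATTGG
Dnajc3 (plus strand, chr14:118937827-118937845): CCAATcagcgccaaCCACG

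Both elements of Hsp90b1 lie within 185 bases of its upstream region, printed because it was the only one of the 60 members searched with a pair of them. The stretch is on the minus strand of GRCm38.p6 at chr10:86705510-86705694, and the capitals mark the elements.
Hsp90b1: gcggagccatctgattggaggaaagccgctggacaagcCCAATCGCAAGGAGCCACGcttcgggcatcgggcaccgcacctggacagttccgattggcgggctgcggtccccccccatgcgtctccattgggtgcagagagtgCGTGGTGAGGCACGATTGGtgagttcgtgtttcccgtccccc

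The mitochondrial list had 9 tested members, among them Hspd1, Hspe1, Hspa9 and the J proteins Dnaja3, Dnajc15, Dnajc19, Dnajc11, Dnajc28 and Dnajc30. Its summed level was 446.6 to 465.5 CPM, with a CV of 1.21% over 12 libraries. In SERTPyramid 0 of 9 passed the test, 7 lay below 0 under the female label and 4 under the male label. Dnajc15, a J protein of the mitochondrial import motor, gave -0.05 ± 0.09 under the female label and 0.13 ± 0.09 under the male label.

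The list drawn up for synaptic and vesicle J proteins had 5 tested members, Dnajc5, Dnajc6, Dnajc13, Dnajb2 and Dnajb6. Of these, Dnajb2 and Dnajb6 are not specific to synapses or vesicles. Dnajc5 had 492.8, 488.3 and 496.0 CPM in controls labelled female and 474.0, 478.2 and 494.6 CPM in SERTPyramid, with overlap. Under the male label it had 477.9, 495.5 and 493.3 CPM in controls and 469.1, 496.5 and 443.7 CPM in SERTPyramid, with overlap. The log2 fold changes were -0.05 ± 0.05 and -0.07 ± 0.05. Over the list 0 of 5 passed the test, and 4 of 5 lay below 0 under the female label and 5 of 5 under the male label. SERTPyramid replicate 3 labelled male held the lowest value of 4 of the 5 genes, and it was also lowest in the summed pyramidal neuron markers, at 4203 CPM. The part of these neurons in the levels was not tested.

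Above 30 CPM the members' median spread between libraries was below that of all genes of like level. The median CV over 12 libraries was 5.13% for the 65 tested members, against 8.53% for all 17631 genes, and 53 of 65, or 81.5%, had a CV under 10%, against 56.9% of genes. Genes with few counts have wide spreads, so members were also set beside genes of like level. Within genes of 30 to 100 CPM, the 22 members had a median CV of 3.53% against 5.18% for 4121 genes, and within 100 to 300 CPM the 10 members had 3.12% against 4.39%. Within 10 to 30 CPM the 12 members had 7.43% against 7.24%, and within 3 to 10 CPM the 10 members had 10.7% against 11.5%. At lower levels the members' spread was above that of genes of like level, with 22.8% against 19.2% for the 5 members at 1 to 3 CPM and 47.6% against 31.7% for Hspb1, the only one tested below 1 CPM. Hspa8 had the smallest CV of any member, 1.71%, with 484.6 to 511.9 CPM, and Dnaja3 followed at 1.92%.

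**Figure D4:**
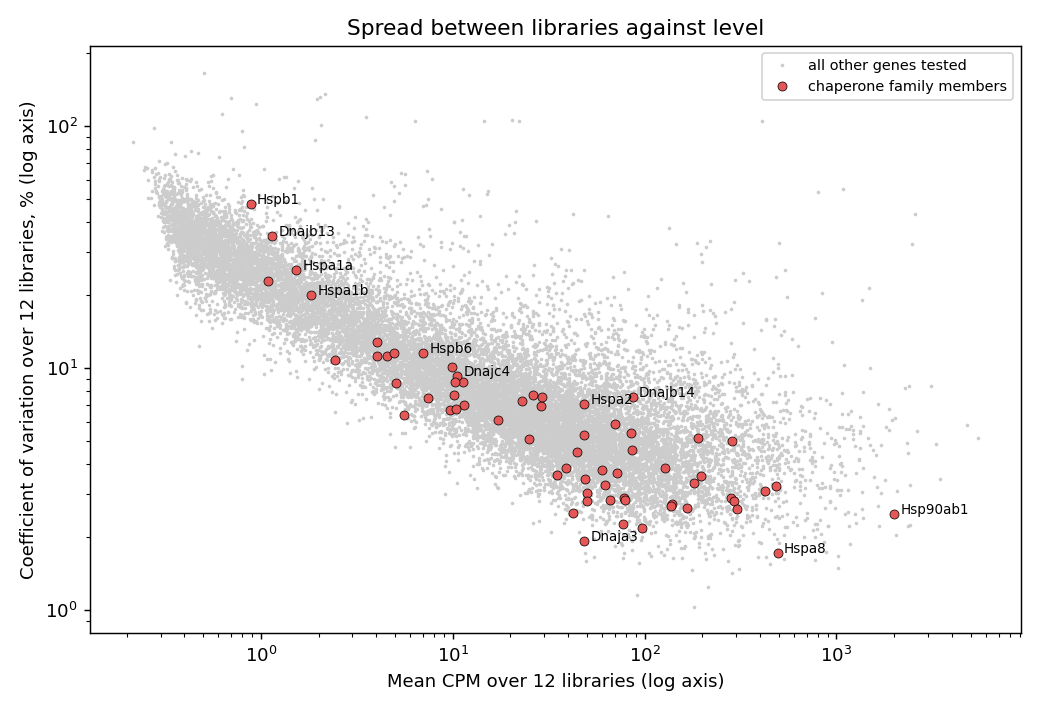
CV over 12 libraries against mean CPM (both log axes) for the 65 tested members (red) and all other tested genes (grey). Hspa8 and Hsp90ab1 lie at the high-level end with CVs of 1.71% and 2.48%, and Hspb1, Dnajb13, Hspa1a and Hspa1b lie at the low-level end with 20.1% to 47.6%.

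Among members with a mean of at least 1 CPM, the widest spreads were those of Dnajb13 at 34.9%, Hspa1a at 25.4%, Hspa1l at 22.8% and Hspa1b at 20.1%. Dnajb13, known as a gene of motile cilia and sperm tails, had 1.13, 0.808 and 0.833 CPM in controls labelled female and 1.30, 0.617 and 0.635 CPM in SERTPyramid. Libraries labelled male had 1.33, 1.21 and 1.41 CPM in controls and 1.92, 0.946 and 1.64 CPM in SERTPyramid. Its highest library, SERTPyramid replicate 1 labelled male, was also the highest in summed ependymal markers (53.1 CPM) and choroid plexus markers (2486 CPM). SERTPyramid replicate 3 labelled female, at 0.635 CPM, had the lowest sums of both, 21.9 and 27.3 CPM. The lowest Dnajb13 value, 0.617 CPM, was in SERTPyramid replicate 2 labelled female, where these markers summed to 42.6 and 725.9 CPM. Replicate 1 of that group had 1.30 CPM of Dnajb13 with an ependymal sum of 42.4 CPM. The part of these cells in the level was not tested.

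Genes that work with the families but carry other names were read from lists of co-chaperones and of the TRiC chaperonin with its prefoldin partner. Of 32 co-chaperones of HSP70 and HSP90, 0 passed the test, and the median log2 fold change was 0.01 under the female label and 0.003 under the male label. Of 14 genes of TRiC and prefoldin, which fold actin and tubulin, 0 passed, with medians of -0.01 and 0.01.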

How the data were processed

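Libraries were made from dorsal hippocampus RNA with an unstranded TruSeq v2 kit, per the labels' protocols. The authors deposited raw counts of reads per Ensembl gene, not normalized. The genome build was mm10, per the submitters' processing notes. The sources used here do not give the aligner, annotation or counting settings.

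The table had 52634 genes, 0 entries without a gene and 0 unmapped columns. Symbols were found for 52401 identifiers, and 52487 matched GENCODE M21 (GRCm38), which gave exon lengths and coordinates. CPM of single libraries used library totals. Genes kept by filterByExpr (17631) were scaled by TMM and tested with edgeR 4.0.16 (R 4.3.3) by the robust quasi-likelihood F test over 12 libraries in 4 labelled groups. Benjamini-Hochberg adjustment ran over all genes tested, and calls needed an adjusted p under 0.05. Each SE was obtained by dividing the absolute log2 fold change by the root of F. The test was tried on simulated counts with known changes under the female label. It called 18% of the genes changed 1.2-fold, 64% at 1.5-fold, 76% at 2-fold and 98% at 4-fold. There were 7 false calls among 17465 genes tested, and 0 calls where no change was simulated. Most changes of 1.2-fold would thus be missed. Upstream sequences came from RefSeq (GRCm38.p6), with windows for 60 members and none used for 14.

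Floors cover counting error only. Of the members, 29 share exon bases with another gene. The libraries of a group differed by more than sampling noise.

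The members and lists were chosen with earlier results of these data known. Members named were those past the threshold in any fit, the 6 of smallest p for each genotype comparison and 4 for the interaction, the 3 of highest level per family, members of the function lists, the 4 most variable, and those not tested. Others, such as those named for non-overlapping groups, were chosen after their values were seen. Same-numbered libraries were checked for pairing by correlating deviations from group means, and 7 of 18 pairs exceeded 0.1. Such deviations, from groups of 3 libraries with both sexes among the controls, cannot decide whether the numbers pair the libraries. The main fit used no pairing.

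The alternatives were RLE size factors, DESeq2 1.42.0, no filter, 1 CPM in 6 libraries, a replicate block, each labelled sex alone, genotype alone, and leaving out each library or both control libraries numbered 1. Library totals without TMM, TMM-scaled CPM for the overlap of groups, and each library left out of the fits of 1 label, were added after the data were seen.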

Additional observations from a re-analysis of the deposited data

How the results depend on the processing

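No member was called by edgeR or DESeq2 in any of the 91 alternative values of the 4 counts, so the counts stayed at 0, also with each replicate left out (0 to 0). Between 0 and 6 members had an unadjusted p under 0.05, and the smallest adjusted p of any member was 0.0679. The replicate block also called 0 members in every comparison, and same-numbered libraries correlated at -0.444 to 0.335, with 3 of 12 libraries closest to their own number. All 508 alternative log2 fold changes of 22 results kept their direction. These results were the 6 of smallest p in each genotype comparison and the 4 of the interaction. Results picked for a small p tend to keep their sign, and the other fold changes named above were not part of this count. With no filter, 103 of all genes were called under the female label, against 0 with it, and 415 with libraries labelled female alone. Over all alternatives, 44 to 51 members lay below 0 under the female label and 32 to 41 under the male label. On CPM scaled by TMM, an alternative added after the data were seen, 2 members were higher and 8 lower without overlap under the female label, against 3 and 6 on library totals, and 5 and 0 under the male label, against 5 and 1. Across both labels the count of 1 higher member became 0. The share of all genes without overlap was counted on library totals only, so the counts on TMM-scaled CPM have no such share beside them. Hspb1, at a mean of 0.883 CPM, had a CV of 47.6%, against 22.1% from counting alone.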

Other observations

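Genes of the unfolded protein response outside the families, such as Xbp1, Atf4 and Calr, numbered 21, of which 0 passed the test in edgeR. Their median log2 fold change was -0.02 under the female label and 0.0 under the male label, and 14 and 10 of them lay below 0. The heat shock factor genes and Hsbp1 numbered 5, with 0 called, and summed to 361.5 to 390.2 CPM. Their median log2 fold change was 0.14 under the female label, with 3 of 5 above 0, and 0.20 under the male label, with 4 of 5 above 0. The alternatives tested 3 to 5 of these genes. Their medians ran from -0.002 to 0.19 under the female label and from 0.0045 to 0.30 under the male label. In the main edgeR fit 2 of 5 were higher at an unadjusted p under 0.05 under the male label and on average. Under the female label 0 were. The share of all genes at that p, in either direction, was 3.16%, 6.49% and 8.04% in turn. The smallest edgeR adjusted p was 0.658 under the female label, 0.999 under the male label and 0.756 on average. Estimates were uneven, from -0.103 to 0.75 under the female label and up to 1.124 under the male label. In each of these comparisons the interval lay within 1.5-fold either way for only 3 of 5 genes. With each label fitted alone, 0 of 4 tested genes under the male label and 1 of 5 under the female label had an unadjusted p under 0.05. Levels of the single genes are not given here, and these values do not show a rise of the whole set.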
